A study of Drosophila melanogaster with 16 samples.

Results

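Trimethylation of histone H3 at lysine 4 (H3K4me3) was compared with input chromatin at the promoters of all annotated genes in neurons of adult Drosophila melanogaster heads. The comparison used 2 H3K4me3 libraries and 1 input library, 3 of the 16 libraries of the study. Each gene was represented by 1 promoter window of 1001 bp around an annotated start. Where a gene had several isoforms, the window with the largest sum of H3K4me3 reads over both libraries was taken. That window need not be the one with the highest ratio to input. This choice of windows gave 15182 genes, of which 14742 had enough reads to be tested and 440 had not (371 of these had 0 reads in all 3 libraries).

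All 3 libraries came from adult flies in which R57C10-GAL4 drove unc84-GFP, a tagged nuclear envelope protein, in all mature neurons. The R57C10 fragment derives from the n-syb locus, so the tagged population is defined by the activity of that fragment. Heads were pooled, and nuclei captured on antibody beads were digested with micrococcal nuclease before immunoprecipitation. The labels gave neither the sex of the flies nor whether the 2 H3K4me3 libraries came from separate preparations, so a p-value reflects just the scatter of these libraries and perhaps technical variation alone. The 2 libraries are called early and late here after the date tags in the column names. Promoter windows held 13.88 M reads in the early library, 46.65 M in the late library and 7.24 M in the input, with a median of 469 input reads per tested window. All positions are on the dm3 assembly. Libraries of other histone marks from the same driver line, and H3K4me3 of the driver lines OK107 and Tdc2 over their own inputs, are given beside the comparison as description.

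H3K4me3 is deposited by the COMPASS family of methyltransferase complexes, which in Drosophila are built around Set1, trx and trr, and is concentrated on the nucleosomes that flank the start sites of active genes. H3K27ac accompanies it at active promoters and enhancers. H3K27me3, written by the Polycomb repressive complex, covers silenced developmental genes. In a mixed population such as all neurons, a promoter that is marked in a few cells gives a low average, and fewer marked cells cannot be told apart from less mark per cell.

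Promoters in neurons fell into 2 clearly separate classes. The ratio of H3K4me3 to input, as log2 of CPM (reads per 1e6 promoter reads) with 1 CPM added to each, had a lower mode at -2.89 and an upper mode at 1.49 in the early library. In the late library the modes lay at -4.26 and 1.61. The upper mode thus stood 20.8-fold above the lower one in the early library and 58.5-fold above it in the late library. The libraries ranked promoters almost alike (Pearson's r = 0.989 across 14742 genes, which are not independent replicates and share the input). They differed at unmarked promoters, where the early ratio exceeded the late one by a median of 1.41 log2. At marked promoters the median difference was -0.05. Both medians depend on the scaling to each library's total promoter reads, and another scaling would move them together.

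**Figure D1:**
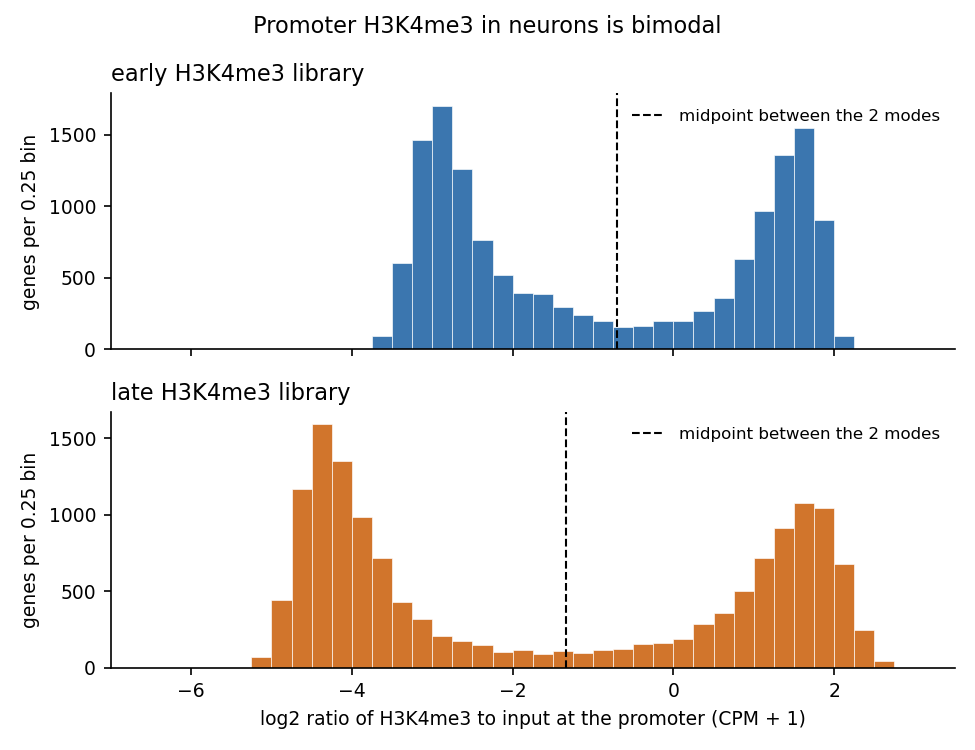
Numbers of genes by log2 ratio of H3K4me3 to input at the promoter (x axis, CPM + 1, bins of 0.25), for the early library (top) and the late library (bottom). The dashed lines mark the midpoints between the modes, at -0.70 and -1.33; few genes lie near them, and the lower mode of the late library is further to the left.

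A promoter was called marked when it lay above the midpoint between the modes in both libraries. This description needs no scaling between mark and input, and was chosen after the distributions were seen. By it 6679 of the 14742 genes (45.3%) were marked, 7873 were unmarked and 190 fell on different sides in the 2 libraries. The added 1 CPM pulls windows with few reads towards a log2 ratio of 0, which lies above both midpoints. A nearly empty window can therefore count as marked, and in the test described next the folds of marked genes ran down to -2.49 log2. The level of a promoter is also given as a percentage of the upper mode, where 0 is the ratio at the lower mode and 100 the ratio at the upper mode.

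In the edgeR quasi-likelihood test, scaled by total promoter reads, 4776 genes (32.4%) were called higher in H3K4me3 than in input and 1265 (8.58%) lower, at an adjusted p below 0.05. All 4776 higher genes were marked by the midpoint description, and of the 1265 lower genes 1255 were unmarked and 10 were split. Another 1903 marked genes did not pass. The fit had 1 residual degree of freedom, and the single input was assumed to vary like the mark libraries. The calls depended on scaling: with RLE scaling 176 genes were higher and 5955 lower, and none of the 4776 was among the higher ones. RLE scaling raised the median fold of all genes from -1.96 to -0.02, so the loss of higher calls was not a fall in folds. Under the main scaling the 2 mark libraries differed by a median of -0.05 log2 at marked promoters and 1.41 at unmarked ones. The part of this difference in the calls was not tested. A log2 fold below is a change in a promoter's share of all promoter reads, and is best read beside the median of all genes, -1.96. The value after ± is the absolute fold divided by the square root of the test's F statistic. It is an approximate standard error and is imprecise for folds near 0.

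Folds of all genes called higher reached 2.60 log2. The genes named next were limited to those with at least 100 input reads and a symbol other than a bare CG or CR number. Among these, the 10 genes with the largest called folds all served general cell functions where a function is known. A16 (CG9933, 2L, 13020807 to 13021808) had 149 CPM in the early library, 206 CPM in the late library and 33.7 CPM in the input, a log2 fold of 2.40 ± 0.29 (adjusted p = 5.9e-13). Aly, an mRNA export adaptor, had 99.9, 144 and 22.1 CPM in the same order and the largest fold of these, 2.47 ± 0.32 (adjusted p = 5.0e-12). The others were l(1)G0230, a mitochondrial ATP synthase subunit (2.43), the ribosomal protein gene RpL4 (2.40), the translation factor eIF2B-epsilon (2.40), the actin regulator Abi (2.37), the splicing factor Rsf1 (2.37), Fbxl4 (2.35), the mitochondrial fusion GTPase opa1-like (2.35) and the COP9 signalosome subunit CSN1b (2.34). At 7 of the 10 the window overlapped that of another gene, so the reads could not be assigned to 1 promoter.

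Folds of all genes called lower ran down to -6.84 log2. Under the same limits on reads and symbols, the 10 genes with the lowest called folds belonged mainly to sensory families. They were the ionotropic receptors Ir52c, Ir75a, Ir75b and Ir94d, the odorant binding proteins Obp58c and Obp58d, the odorant receptor Or30a, the ecdysone-induced gene Eig71Ee, the Osiris family gene Osi11 and the V-ATPase subunit Vha100-5. Ir75a (CG14585, 3L, 17810521 to 17811522) had 10.2 CPM in the early library and 3.49 in the late library against 151 in the input, a log2 fold of -4.46 ± 1.07 (adjusted p = 1.1e-04). Over the 10 genes the median was 9.80 CPM in the early library, 3.29 in the late library and 137 in the input. The genes were chosen by these folds, so the gap between mark and input is a description. They had high inputs beside the median of 64.8 CPM.

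Genes of general neuronal identity and of the presynaptic terminal were marked without exception, 25 of 25 beside 45.3% of all genes. Over all tested genes 53.4% were unmarked, 32.4% called higher and 8.58% called lower, and the counts of each group below are to be read beside these shares. The marked share also rose with a gene's number of start windows, from 40.2% with 1 to 64.9% with 2 and 75.3% with 3 or more. The part of this in the group counts was not tested. The pan-neuronal group had a median log2 fold of 1.08, and of 0.99 when each gene's isoform with the largest input was taken instead. Its levels ran from 34.8 to 147% of the upper mode in the early library and from 28.8 to 154% in the late library, and 9 members were called higher. The neuronal synaptobrevin n-syb (CG17248, 3L, 1637249 to 1638250), part of the vesicle fusion machinery, had 167 and 178 CPM in the early and late libraries against 70.3 in the input (log2 fold 1.30 ± 0.28, adjusted p = 2.2e-05). Both mark values were well above the input, which itself was near the median of all genes (64.8 CPM). The driver fragment comes from this locus, and its part in these values was not tested.

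The RNA-binding protein gene elav (CG4262, X, 416759 to 417760), the standard marker of neurons, had 80.3 and 78.9 CPM against 35.1 in the input. Its libraries nearly coincided at 79.0 and 72.1% of the upper mode, yet its log2 fold of 1.18 ± 0.76 did not pass (adjusted p = 0.18). The active zone scaffold brp had 166 and 163 CPM against 90.9 in the input (0.86 ± 0.28, adjusted p = 0.0064). The calcium sensor Syt1 had 43.3 CPM in both libraries against 24.2 in the input and did not pass (0.84 ± 1.87, adjusted p = 0.69).

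Within this group the endocytic adaptor lap (2.15), the chaperone Csp (1.86), the fusion clamp cpx (1.59), the dynamin shi (1.55) and the vesicle GTPase Rab3 (1.45) were called higher. So were n-syb, brp, the exchanger Nckx30C (1.14) and the RNA-binding protein Rbp9 (1.08). The windows of lap and Csp overlapped those of CG10055 and CG11523. Such overlaps lay at 4 of the 25 members, and the median log2 fold without them was also 1.08. The lowest members were Snap25, a partner of n-syb in vesicle fusion, with 43.7 and 39.5 CPM against 40.9 (log2 fold 0.03 ± 1.61, adjusted p = 0.99), and the sodium channel para, with 28.1 and 20.9 CPM against 22.9 (0.09 ± 2.45, adjusted p = 0.97). Their values lay around the input, but well above the unmarked class, where the median was -3.48.

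Of 21 voltage-gated and related channels 15 (71.4%) were marked beside 45.3% of all genes, 8 (38.1%) were called higher beside 32.4%, and 1 was lower. Their median log2 fold of 0.77 depended on the window: it was -2.21 with each gene's largest-input isoform, and -0.10 with 1 higher call among the 14 channels without overlapping windows. The sodium leak channel na had 136 and 165 CPM against 46.3 in the input (1.70 ± 0.27, adjusted p = 7.5e-09), and the potassium channel sei had 174 and 175 against 55.8 (1.65 ± 0.29, adjusted p = 8.3e-08). The h-current channel Ih (1.40), the sodium channel subunit tipE (1.40) and the potassium channels Shal (1.35), slo (1.31) and Shaw (1.20) were also higher, as was NaCP60E (1.09). The windows of na, sei, tipE, slo, Shaw and NaCP60E overlapped those of other genes. The 6 unmarked members included all 3 inward rectifiers, Ir, Irk2 and Irk3; Irk2 had 12.1 and 4.01 CPM against 128 (-4.00 ± 1.33, adjusted p = 0.0082). The channel subunits Ork1 (-3.50), Ca-beta (-2.98) and Ca-alpha1D (-2.34) were unmarked as well.

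Of 31 receptor subunits for neurotransmitters 24 were marked, 5 were called higher and 1 lower. The called ones were the nicotinic subunit nAcRalpha-96Aa (99.1 and 146 CPM against 48.6, log2 fold 1.34 ± 0.28, adjusted p = 7.4e-06), the metabotropic GABA receptors GABA-B-R2 (1.30) and GABA-B-R1 (1.08), the glutamate-gated chloride channel GluClalpha (1.22) and the muscarinic receptor mAcR-60C (1.09). The kainate-type subunit clumsy was lower, with 13.5 and 4.16 CPM against 129 (-3.87 ± 1.29, adjusted p = 0.0083). The dopamine receptor D2R (-3.43), the nicotinic subunit nAcRalpha-7E (-3.06) and the GABA-gated subunit Grd (-3.48) were also unmarked without passing. Marked receptors reached a median of 58.1% of the upper mode in the early library and 55.0% in the late library. Over all 31 the median log2 fold was 0.33, and -0.13 with each gene's largest-input isoform.

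Axon guidance and adhesion genes were marked at 46 of 51 promoters, with 8 higher and 0 lower. The teneurin Ten-m had 84.4 and 96.2 CPM against 28.9 (1.65 ± 0.62, adjusted p = 0.022), and the immunoglobulin-domain gene dpr12 had 106 and 150 against 42.0 (1.61 ± 0.28, adjusted p = 9.3e-08). The lowest member was beat-Vc at -2.99. Their median log2 fold, 0.49, was below that of the pan-neuronal group, and their gene bodies carried a median log2 ratio of H3K27me3 to input of 0.48 in the early H3K27me3 library. The difference between the 2 groups was not tested.

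**Figure D2:**
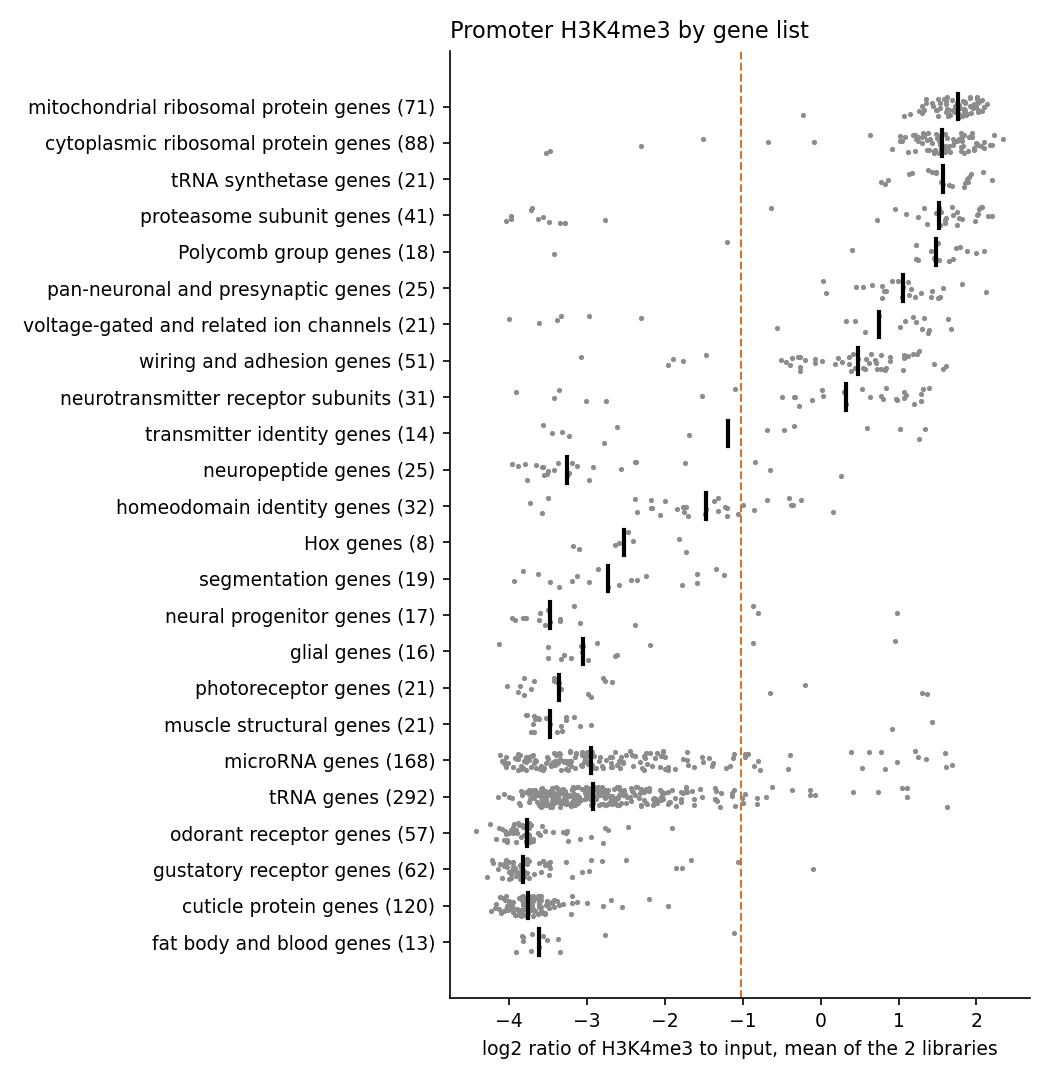
Log2 ratio of H3K4me3 to input (x axis, mean of the 2 libraries) for every tested member of 24 gene lists, with the number of members in parentheses. Each point is a gene, black bars are list medians, and the dashed line is the mean of the midpoints of the 2 libraries; ribosomal, translation and pan-neuronal lists lie to its right, and sensory receptor, cuticle, muscle and glial lists mainly to its left.

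Of 14 genes that give neurons their transmitter 7 (50.0%) were marked, close to the 45.3% of all genes, and 7 were unmarked. VGAT (CG8394, 2R, 10087726 to 10088727), which loads GABA into vesicles, had 206 and 223 CPM against 84.1 in the input and was the only member called higher (1.35 ± 0.33, adjusted p = 1.3e-04). Choline acetyltransferase Cha, with 75.8 and 98.0 CPM against 35.2, had a log2 fold of 1.30 ± 0.61 (adjusted p = 0.072). The vesicular acetylcholine transporter VAChT had 64.8 and 78.5 CPM against 34.8 (1.04 ± 0.93, adjusted p = 0.32). These genes of the cholinergic locus have nearly the same promoter window, so their values are not separate measurements. The choline transporter CG7708 was at 0.61.

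Lower in the order came the tyramine hydroxylase Tbh (-0.34), dopa decarboxylase Ddc (-0.47) and the vesicular glutamate transporter VGlut (-0.61), all marked but below the input. Their levels were 12.6 to 29.3% of the upper mode. The GABA-synthesizing enzyme Gad1 had 28.7 and 16.9 CPM against 73.2 in the input (-1.69 ± 1.63, adjusted p = 0.35) and was unmarked, at 9.89 and 6.29% of the upper mode, in contrast to VGAT. The monoamine genes Vmat (-2.47), DAT (-2.88), Trh (-3.26), ple (-3.29), Tdc2 (-3.51) and SerT (-3.64) were unmarked. The tyrosine hydroxylase ple had 15.8 and 5.92 CPM against 106, and Tdc2, which makes tyramine in a small number of neurons, had 10.2 and 4.16 against 82.0. None of the transmitter genes was called lower.

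Neuropeptide genes were mostly unmarked, 22 of 25, with a median log2 fold of -3.23. The circadian peptide Pdf had 18.2 and 4.80 CPM against 99.3 in the input (-3.12 ± 1.60, adjusted p = 0.099). The sulfakinin gene Dsk (-3.94), the insulin-like peptide Ilp2 (-3.56) and npf (-3.74) were called lower, each with both mark libraries far below the input. The short neuropeptide F gene sNPF, with 19.2 and 10.9 CPM against 50.8, was the highest of the unmarked ones at -1.76. The 3 marked genes were Proct (-0.85), Nplp1 (-0.66) and the leucokinin gene Lk (0.27), of which Lk had a window overlapping CG34039. Nplp1 had 32.1 and 24.8 CPM against 44.9, and its H3K27ac exceeded input in both H3K27ac libraries (0.46 and 0.45 on the log2 scale).

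**Figure D3:**
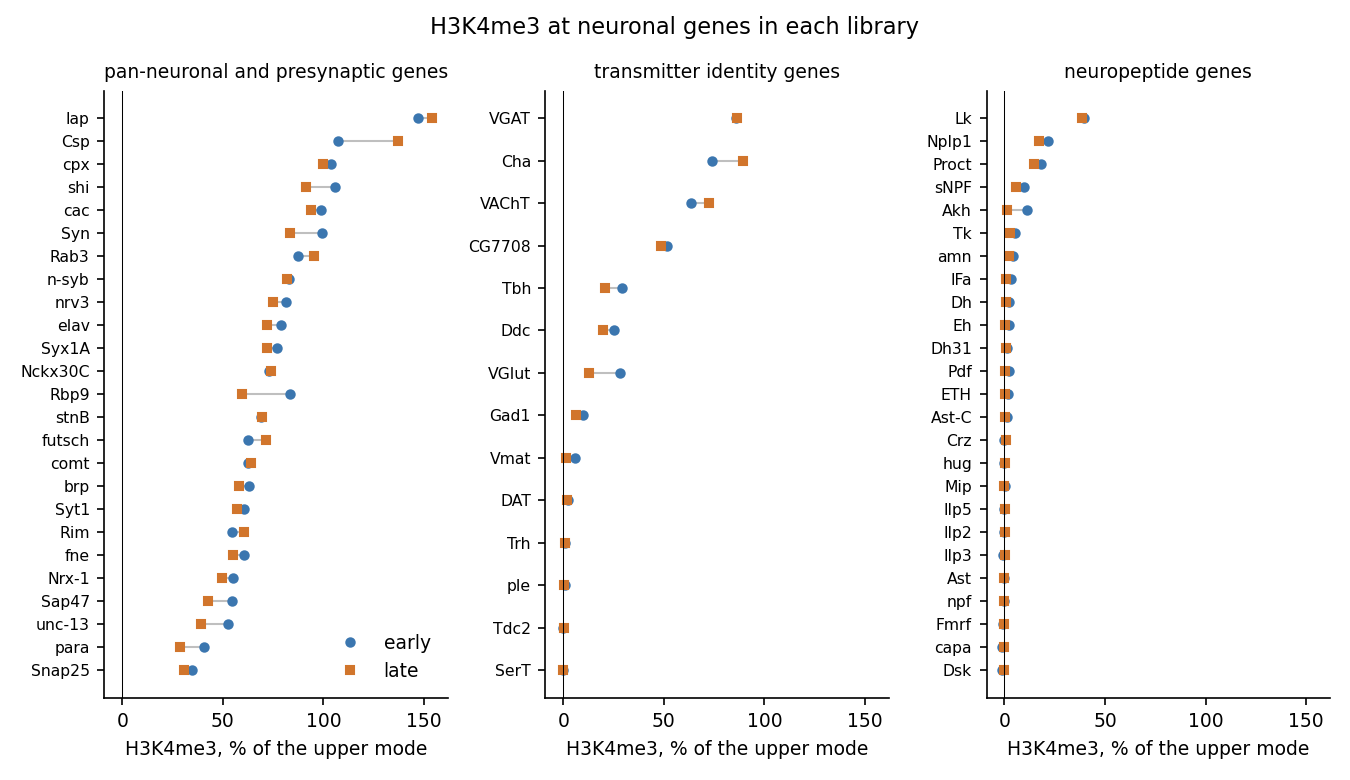
H3K4me3 as a percentage of the upper mode (x axis) for each pan-neuronal, transmitter and neuropeptide gene, with circles for the early library and squares for the late library. All pan-neuronal genes lie above 28% in both libraries, transmitter genes spread from about 0 to 89.4%, and all but a few neuropeptide genes lie near 0.

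Genes of other head cell types were described as well. They cannot measure the purity of the labelled nuclei, because genes used by few neurons, such as most neuropeptide genes, were unmarked too. Of 16 glial genes 14 were unmarked and 2 were called lower; repo, the transcription factor that defines glia, had 16.4 and 5.64 CPM against 87.5 (-2.99 ± 1.77, adjusted p = 0.15). Its level was 2.30 and 0.761% of the upper mode. Of 21 muscle genes 19 were unmarked, and the myosin heavy chain Mhc had 11.1 and 3.47 CPM against 99.1. All 13 fat body and blood genes were unmarked, with 3 called lower. The highest of them was the peroxidasin Pxn, with 31.2 and 22.8 CPM against 59.1, at 15.0 and 11.5% of the upper mode.

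Some of the marked muscle and photoreceptor genes had overlapping windows, but neither marked glial gene did. The engulfment receptor drpr had 99.6 and 80.6 CPM against 45.7 (0.98 ± 0.46, adjusted p = 0.074) in a window free of other genes, and the sodium pump subunit nrv2 was marked at -0.87. Among muscle genes the marked ones were Tm1, called higher at 0.93, and Strn-Mlck, called higher at 1.44 in a window overlapping CG8366. Of 21 photoreceptor genes 17 were unmarked, among them the rhodopsin ninaE (12.2 and 5.25 CPM against 96.2, log2 fold -3.46). The marked ones were the rhodopsin Rh4 (1.43, called higher) and the phospholipase norpA (1.32), whose windows overlapped CG9951 and mRpL33, and eys (-0.20) and rdgA (-0.67). Photoreceptors are themselves neurons of the head, and their defining rhodopsin ninaE was near the lower mode, at 0.0421 and 0.405% of the upper one.

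Hox and segmentation genes were not marked by H3K4me3 and mostly carried H3K27me3. Their median log2 folds of -2.31 and -2.77 were below the median of all genes, -1.96, but above that of genes without overlapping windows, -3.09, and above that of the unmarked class, -3.48. None of the 8 Hox genes was marked; Ubx, which specifies thoracic and abdominal segments, had 12.1 and 2.87 CPM against 60.2 (-3.01 ± 2.32, adjusted p = 0.25), and Scr, a head and thorax Hox gene, had 29.9 and 8.70 against 59.9 (-1.64). Gene bodies of all 8 exceeded input by more than 1 log2 in both H3K27me3 libraries, with medians of 2.35 and 2.54. The 19 segmentation genes were alike, with 0 marked, 2 split and 3 called lower; the hedgehog ligand gene hh had 14.4 and 6.28 CPM against 160 (-3.96 ± 0.86, adjusted p = 1.9e-05). Of the 19 genes 18 exceeded input by more than 1 log2 in both H3K27me3 libraries.

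Homeodomain and Pax genes of neuronal identity were intermediate. Of 32 members 7 were marked, 3 were split and 22 were unmarked, with a median of 10.2% of the upper mode, and 31 exceeded input by more than 1 log2 in both H3K27me3 libraries. The highest were ap, with 79.0 and 77.8 CPM against 70.1 (0.16 ± 0.44, adjusted p = 0.75), acj6, with 31.2 and 32.5 against 37.8 (-0.25), and the Pax6 gene ey, with 68.2 and 40.7 against 70.0 (-0.36). Lim1 (-0.36), toy (-0.38), vvl (-0.64) and tup (-0.85) were the other marked ones. At the opposite end, al, ind and H2.0 lay at -3.68, -3.56 and -3.55. The 7 marked genes carried H3K27me3 as well, for acj6 2.32 and 2.52 log2 over input. In the libraries of other driver lines, with 1 each, the H3K4me3 ratio of ey was 1.86 in OK107 and -0.28 in Tdc2, and that of acj6 was -2.40 and -1.16. Each ratio is over the input of its own line. Differences between driver lines, and any part of the driver itself in them, were not tested.

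H3K4me3 with H3K27me3 was rare over the genome. Of the 6679 marked genes 71 (1.06%) exceeded input by more than 1 log2 in both H3K27me3 libraries, beside 979 of the 7873 unmarked genes (12.4%). The 71 included the transcription factors disco, Rfx, fkh, kn, dac and the identity genes above, the clock gene per, VGlut and the Polycomb group gene Su(z)2. VGlut had log2 ratios of 2.13 and 2.29 for H3K27me3 and -0.16 and -1.22 for H3K4me3, and Su(z)2 had 1.74 and 1.91 for H3K27me3 and 1.24 and 1.21 for H3K4me3. Whether both marks sit on the same chromosomes or in different neurons cannot be told apart in these libraries.

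H3K27ac followed H3K4me3. It exceeded input in both H3K27ac libraries at 88.7% of marked and 11.7% of unmarked promoters, and across genes the mean log2 ratios correlated at r = 0.78, against -0.556 for H3K27me3. These ratios share the R57C10 input with H3K4me3 (its promoter count for H3K27ac, its gene body count for H3K27me3), and genes are not independent replicates. Pan-neuronal promoters had median log2 ratios of 1.36 and 1.22 for H3K27ac, above those of cytoplasmic ribosomal protein genes (1.06 and 1.07), while in H3K4me3 the order was the opposite (medians of 1.08 and 1.59). The difference in order was not tested.

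**Figure D4:**
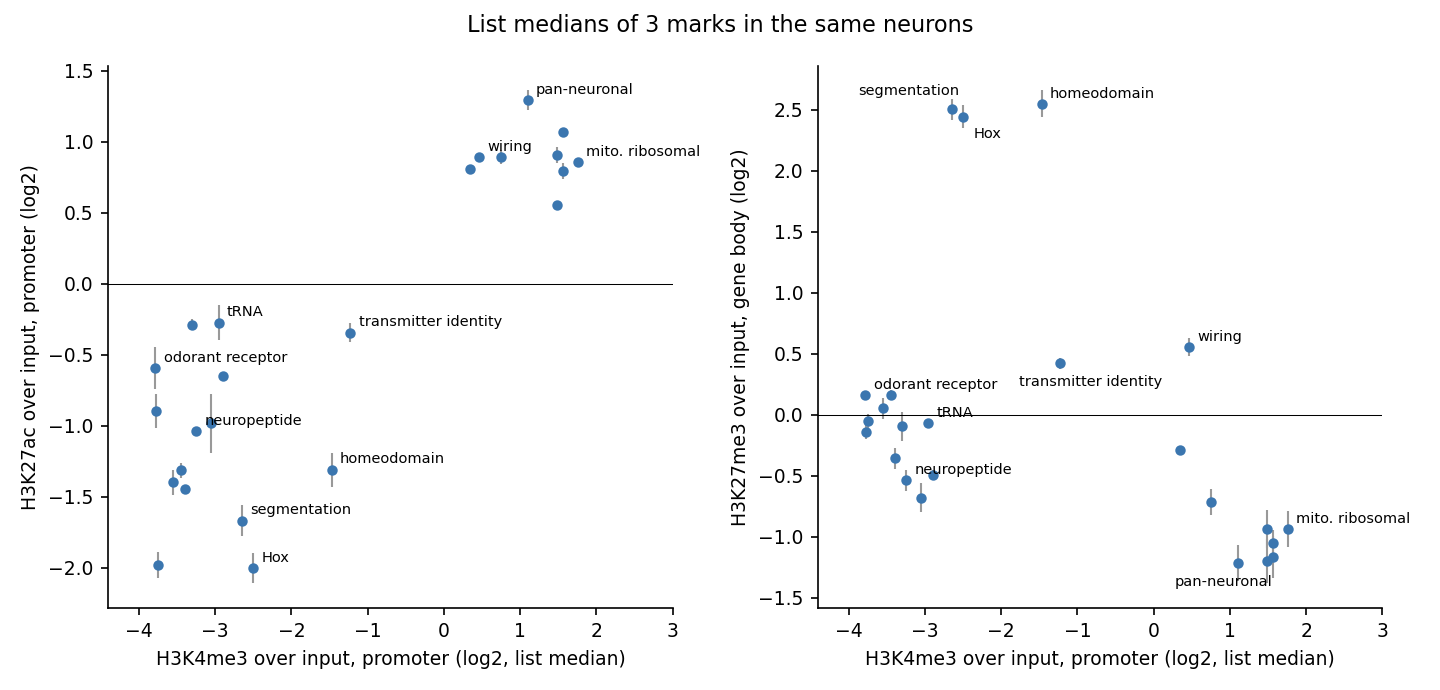
Median log2 ratios of H3K27ac at promoters (left, y axis) and H3K27me3 over gene bodies (right, y axis) against the median H3K4me3 ratio at promoters (x axis), for the same 24 gene lists. Points are means of the 2 libraries of a mark and vertical lines join the 2 libraries; Hox, segmentation and homeodomain lists stand apart at H3K27me3 medians above 2.

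Most housekeeping families were marked. Mitochondrial ribosomal protein genes were marked at 71 of 71 promoters, with 69 called higher, a median log2 fold of 1.80 and a median of 117% of the upper mode. The highest were mRpS16, with 295 and 334 CPM against 70.7 (2.15 ± 0.45, adjusted p = 7.1e-06), and mRpS22, with 196 and 317 against 57.7 (2.15 ± 0.37, adjusted p = 8.1e-08). The lowest was mRpS5, with 37.0 and 32.5 CPM against 40.9 (-0.24). Cytoplasmic ribosomal protein genes were marked at 84 of 88, with 69 higher, and RpL32 had 250 and 271 CPM against 103 (1.34 ± 0.38, adjusted p = 0.0016). All 21 tRNA synthetase genes were marked and 19 called higher, as were 24 of 28 translation initiation factors, with 21 higher and 1 lower. Of these lists 57 of 71, 62 of 88, 17 of 21 and 15 of 28 members had windows that overlapped another gene, beside 40.5% of all tested genes; the part of this overlap in the result was not tested.

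Of 41 proteasome genes 30 (73.2%) were marked, 28 higher and 3 lower, with Prosbeta2 at 2.24 and Rpt4 at 2.22. The windows of Prosbeta2 and Rpt4 overlapped those of mRpL39 and CG15896, and 19 of the 41 members had such overlaps. The median log2 fold was 1.54 for the list and 1.19 for members without overlapping windows. The 11 unmarked members included Prosalpha6T, a testis form of a core subunit, with 11.4 and 4.29 CPM against 126 (-4.02 ± 1.36, adjusted p = 0.0095), and Prosbeta4R2 (-4.03). Of 33 subunit genes of the vacuolar proton pump 18 (54.5%) were marked beside 45.3% of all genes, 17 were called higher and 4 lower. Their median log2 fold of 1.51 turned to -3.34 among the 18 without overlapping windows, of which 5 were higher. The highest was VhaM9.7-a, in a window overlapping CG11586, with 220 and 299 CPM against 51.5 (2.33 ± 0.38, adjusted p = 1.1e-08). The 15 unmarked ones included Vha100-5 (-4.39) and Vha16-2 (-4.34). The ribosomal protein copies RpL10Aa (-3.50) and RpL37b (-3.39) and the translation factor copies eIF4E-3 and eIF4E-4 (-3.81 and -3.85) were also unmarked.

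Most of the genes tested that write or remove H3K4 methylation, or belong to the Polycomb group, were themselves marked; Set1 was not analysed here. All 11 tested genes of the H3K4 methylation list were marked, with 7 higher; Dpy-30L1, a COMPASS core subunit, had 194 and 261 CPM against 47.9 (2.25 ± 0.34, adjusted p = 1.2e-09), and the methyltransferase trx had 71.5 and 85.7 against 43.9 (0.84 ± 0.68, adjusted p = 0.27). Of 18 Polycomb group genes 16 were marked and 13 higher, among them Sfmbt (2.13), calypso (2.01), ph-p (1.92), Pc (1.73) and the H3K27 methyltransferase E(z) (1.48). The exceptions were esc and Psc. The gene esc had 11.8 and 5.38 CPM against 95.8 (-3.48), while its paralog escl was higher at 1.24. Psc was split (-1.14) and had H3K27me3 at 1.20 and 1.37 log2 over input. Windows overlapped another gene at 6 of the 11 and 11 of the 18 members, among them Dpy-30L1, Sfmbt and calypso. In the test of genes without overlapping windows, 1 of 5 and 2 of 7 members were called higher. Their median log2 folds there were 0.91 and 1.25. The part of the overlaps in the counts was not tested.

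Families used outside neurons, or in few sensory cells, were unmarked almost throughout. None of 57 odorant receptors was marked and 24 (42.1%) were called lower beside 8.58% of all genes, with a median log2 fold of -3.76; the highest was Or85f, with 32.9 and 8.81 CPM against 99.7 (-2.26). Of 62 gustatory receptors 1 was marked, 1 split and 36 called lower, and the marked one, the carbon dioxide receptor Gr63a, had 103 and 77.9 CPM against 95.8 in a window overlapping CG14977. Of 59 chemosensory ionotropic receptors 2 were marked, Ir76a (1.16 ± 0.26, adjusted p = 4.7e-05) and Ir60e (-0.31), both in windows shared with other genes, and 24 were called lower. The 3 receptor families had median inputs of 100, 110 and 101 CPM beside 64.8 CPM over all genes, and the part of this in the lower calls was not tested. Odorant receptors are expressed in antennae and palps of the head, each in few neurons.

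The remaining families of this kind gave the same picture. All 42 odorant binding protein genes, 120 cuticle protein genes, 23 Osiris genes, 26 immune peptide genes and 21 glutathione S-transferase genes were unmarked, with 17, 38, 8, 0 and 3 called lower. Of 79 cytochrome P450 genes 4 were marked, of 44 seminal fluid genes 1, of 25 digestive proteases 1, of 19 chorion and vitelline membrane genes 3 and of 31 testis genes 4. The chorion list held Cp190, a chromatin insulator protein, and Cp1, a cysteine protease, whose symbols resemble chorion genes, and both were called higher (1.48 and 1.38). Cyp1, marked at 1.12 in the P450 list, is likewise a cyclophilin and no P450 enzyme. These members entered by their symbols and do not stand for their lists.

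Progenitor genes were unmarked in 14 of 17 cases, with the proneural genes l(1)sc (-4.04) and sc (-4.02) lowest. The growth regulator brat, with 122 and 90.8 CPM against 52.9 (1.01 ± 0.29, adjusted p = 0.0019), was called higher in a window overlapping l(2)37Cg, and the cyclin CycE was marked at -0.75. Activity-regulated genes were marked at 4 of 4 promoters, among them the Fos gene kay, with 80.3 and 82.5 CPM against 37.4 (1.12 ± 0.70, adjusted p = 0.16), and sr at 0.13. Their median log2 fold of 0.63 turned to -3.02 with the largest-input isoform, so it holds for each gene's start with the most H3K4me3 reads. Of 16 heat shock genes 2 were marked, the mitochondrial chaperone Hsp60 (1.27) and Hsp83 (-0.49), of which Hsp83 shared its window with CG14965.

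Of 9 clock genes 5 (55.6%) were marked beside 45.3% of all genes. Their median log2 fold was -0.28, and -2.37 with the largest-input isoform. The kinase sgg had 108 and 105 CPM against 36.0 (1.56 ± 0.38, adjusted p = 1.7e-04), cwo was marked without passing (0.99 ± 0.96, adjusted p = 0.35), and per had 49.7 and 36.7 CPM against 49.2 (-0.19) with H3K27me3 at 1.92 and 1.89 log2. The core factors tim (9.44 and 4.74 CPM against 66.8, log2 fold -3.24) and Clk (21.5 and 5.94 against 77.6, -2.50) were unmarked. Of 6 sex determination genes 5 were marked and 4 higher, including Sxl (0.90 ± 0.27, adjusted p = 0.0027), while dsx was unmarked at -2.18; of the 3 without overlapping windows 1 was higher. All 7 dosage compensation genes were marked, 5 of them called higher, but among the 4 without overlapping windows 1 was higher and the median fell from 1.48 to 0.44. The window of msl-2 (2.06) is offset by 51 bp from that of Pdsw, so its value is not its own. The acetyltransferase gene mof was at 1.70, while the noncoding RNAs roX1 and roX2 were at 0.23 and -0.55.

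Short noncoding RNA genes were mostly unmarked. Of 168 microRNA genes 17 were marked, 9 higher and 25 lower. The precursor mir-14 had 158 and 173 CPM against 50.8 in a window free of other genes (1.71 ± 0.28, adjusted p = 1.6e-08), and mir-316 had 12.5 and 3.26 against 130 (-4.05 ± 1.32, adjusted p = 0.0067). The annotated start of a microRNA is that of its hairpin and can lie far from the promoter of its primary transcript. Of 292 tRNA genes, which are read by RNA polymerase III, 13 were marked and 2 called higher, both in windows overlapping 3 other genes. Input at the 13 marked windows ran down to 0.829 CPM, where the added 1 CPM weighs on the ratio. Of 297 small nuclear and nucleolar RNA genes 84 were marked, and 231 had windows that overlapped another gene. Of 115 histone genes 107 had 0 reads in all 3 libraries and 5 were tested; His2Av, a variant outside the repeated cluster, had 175 and 187 CPM against 47.5 (1.93 ± 0.29, adjusted p = 1.3e-09).

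Alternative starts of a gene often differed. Among 1352 genes with windows more than 1001 bp apart and at least 100 input reads in each, 650 (48.1%) had both a marked and an unmarked start, 215 had only marked and 431 only unmarked starts, and 56 had other combinations with a split window. The gene brp had log2 ratios of 1.51 and 1.41 (early and late) at its most upstream window, -2.27 and -3.49 at a window 6.1 kb downstream, and 0.86 and 0.83 at 13.4 kb. Syt1 had 0.82 and 0.81 at its upstream start and -1.01 and -2.30 at 6.7 kb. The calcium channel cac was marked at 1.48 and 1.52, while a start 1.2 kb upstream of that had -2.67 and -3.53.

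The sex determination gene fru, which codes for transcription factors of courtship circuits, was marked only at its most upstream pair of overlapping windows, where CPM were 57.9 and 45.2 against 56.3 in the input. The other 6 starts, 39.0 to 109.8 kb downstream, were unmarked, with log2 ratios between -2.22 and -2.95 in the early library. The tropomyosin gene Tm1 was unmarked at 3 upstream starts and marked at 6.5 and 9.4 kb (0.48 and 0.43, then 1.08 and 0.75). Strn-Mlck was marked at 1 of 6 windows, the one that overlaps CG8366, and norpA was marked at its upstream start (1.29 and 1.30), which overlaps mRpL33, but not at 25.3 kb (-2.39 and -3.43). The marked values of norpA, Strn-Mlck and Tm1 in the photoreceptor and muscle lists thus belong to some of their starts and not to others.

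**Figure D5:**
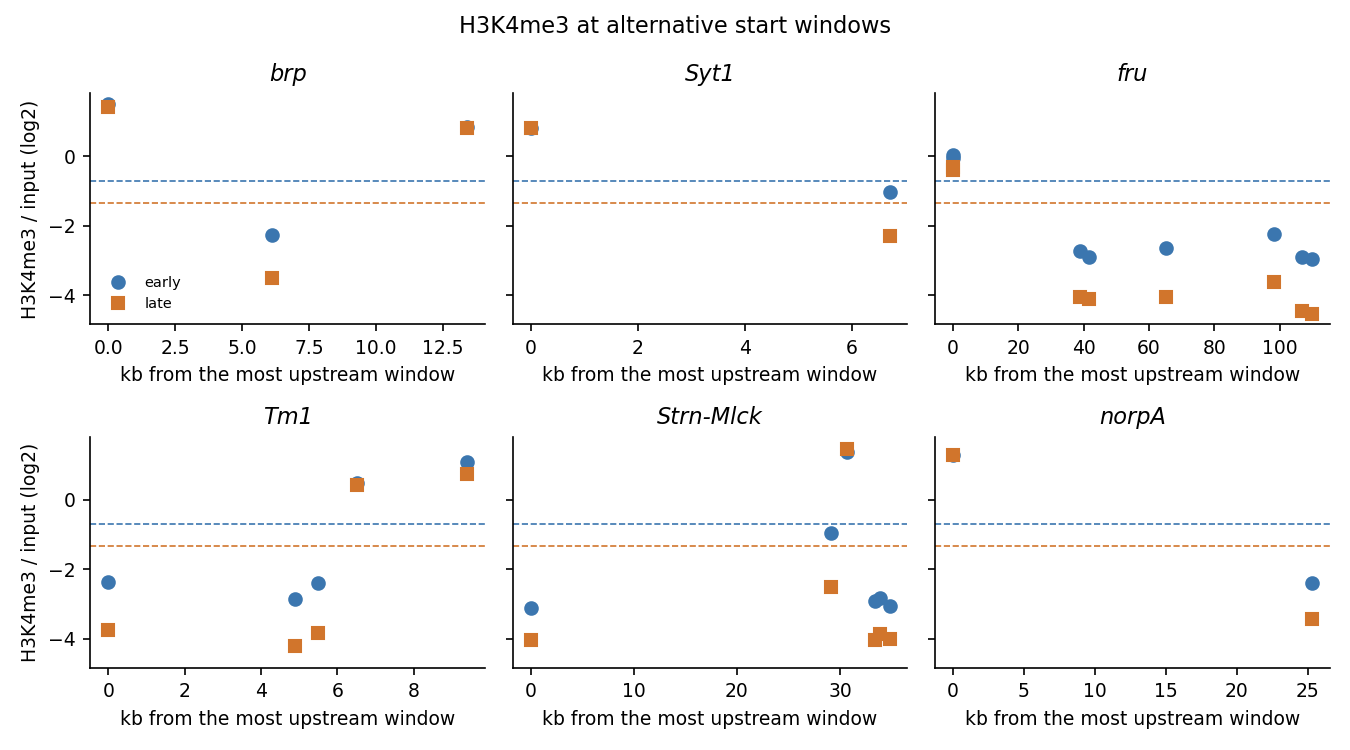
Log2 ratio of H3K4me3 to input (y axis) at each annotated start window of 6 genes, by distance in kb from the most upstream window in the direction of transcription (x axis). Circles are the early and squares the late library, and dashed lines are the midpoints of the 2 libraries; in each gene some windows lie above both lines and others below.

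Marking also varied with the position of promoters. Windows that overlapped another gene were marked at 4031 of 5968 genes (67.5%) and windows that did not at 2648 of 8774 (30.2%), and the latter had a median log2 fold of -3.09. On the X chromosome 1148 of 2286 genes (50.2%) were marked, beside 44.0 to 45.1% on the arms of chromosomes 2 and 3, but only 4 were called lower. Input windows on the X held a median of 317 reads, beside 506 on the large autosome arms. On the small chromosome 4, with a median of 36.9% of the upper mode and a median log2 fold of 0.18, 60 of 84 genes (71.4%) were marked. None of the 6 tested genes in Y heterochromatin was.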

How the data were processed

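Read counts from chromatin immunoprecipitation and sequencing were deposited by the authors as raw counts per annotated isoform on dm3; H3K4me3, H3K27ac and input were taken at promoters, and H3K27me3 and its input along gene bodies. Per the submitters' processing notes, CASAVA 1.8, Bowtie 0.12.7 and bedtools 2.15 were used; the treatment of reads with several genomic matches is not given in the sources used here. Of 25701 isoform entries 25406 had a gene, 203 had none (0.463 to 1.16% of a column's counts) and 92 were spike-in entries with 0 counts. In all, 74 other sample columns of the deposited tables were not used here.

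The 2 R57C10 H3K4me3 libraries were compared with the R57C10 promoter input by glmQLFit and glmQLFTest of edgeR 4.0.16 (R 4.3.3), scaled by total count over the kept promoters, with Benjamini-Hochberg adjustment over 14742 genes and a threshold of 0.05. Genes had to pass the default expression filter. The fitting steps were run on simulated data as a check of the code. That simulation had less scatter and fewer changed genes than these libraries, so it does not bear on the calls. Per-library ratios used a pseudocount of 1 CPM. Intervals and errors cover the libraries at hand; the depths (13.88, 46.65 and 7.24 M) limit genes with few reads. Alternatives were TMM and RLE scaling, scaling to the lower mode, DESeq2 1.42.0, no filter, the inputs of all 3 driver lines, the isoform with the largest input, genes without overlapping windows and leaving out each mark library and, chosen after the data were seen, the main chromosomes only.

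The comparison and the 47 gene lists (2224 genes) were chosen with earlier results of these data known, and the midpoint and percentage descriptions after seeing the distributions. Named genes were the 2 highest and 2 lowest of each list (1 and 1 for lists under 6), the 10 largest called folds in each direction with at least 100 input reads and a symbol, and 25 fixed genes; any other was chosen after its values were seen. Gene biotypes came from RefSeq for 15057 matched genes. A planned search of promoter sequences for motifs was not made, and no sequences are shown.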

Additional observations from a re-analysis of the deposited data

Results flagged for a closer look

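Promoter windows of isoforms with no gene identifier were in no comparison. Of 173 such windows with at least 100 input reads, 103 lay above the midpoints between the modes in both H3K4me3 libraries, with median log2 ratios to input of 1.47 (early) and 1.45 (late), close to the upper modes of annotated genes. Which transcripts they belong to was not analysed here.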

How the results depend on the processing

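No paired analysis was possible because the input has 1 library and no replicate number. The 4776 higher and 1265 lower calls became 176 and 5955 with RLE scaling, 248 and 0 with scaling to the lower mode, and 1318 and 544 among the 8774 genes without overlapping windows, of which 2648 were marked; fewer genes were tested there. The lower calls became 639 with TMM, 6848 with DESeq2, 7838 with all 3 inputs and 746 with the largest-input isoform. With 1 mark library left out and 3 inputs, higher calls ran from 5649 to 5860 and lower calls from 7991 to 8341; the lone mark library was assumed to vary like the inputs. The median of all genes moved from -1.96 to -1.26 with TMM, -0.02 with RLE and 1.43 with the lower mode. None of the higher calls turned into lower ones under any alternative except 9 with the largest-input isoform.

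Log2 folds of Cp1 (-0.23), Ir76a (-1.71), Strn-Mlck (-1.43), Tm1 (-3.47), brat (-1.94) and sgg (-2.83) turned negative with the largest-input isoform, which is another start. Hcf turned to 2.22 and otu to 1.29 with RLE scaling, and Hcf to 3.66, opa to 2.16 and otu to 2.73 with scaling to the lower mode. These scalings raise the folds of all genes together, as the medians show, so genes a little below 0 change sign by construction.

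Against the median of all genes, list medians changed sign without overlapping windows for Hox (0.79), V-ATPase (-0.25), glial (0.01), heat shock (0.52), microRNA (0.10) and segmentation genes (0.33), and with the largest-input isoform for activity-regulated (-0.80) and clock genes (-0.15). With the late library alone they changed sign for heat shock genes (0.01) and small nuclear and nucleolar RNA genes (-0.17; 0 with 3 inputs). Depth limits genes with few input reads, and paralogs and overlapping windows share reads.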
